A study of Mus musculus with 2 samples.

Results

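Type 17 cytokines and their receptors were followed through the leukocytes of mouse colorectal tumors as 6 genes: the cytokine genes Il17a, Il17f and Il22, and the receptor genes Il23r, Il1r1 and Il17ra. The 6 genes, of 30905 in the gene list, were selected by name because the cytokines had differed between the diets in helper T cells of these same libraries, so those differences are given as a description. The samples were CD45+ leukocytes sorted from tumor-bearing colon of male C57BL/6 mice, in a model in which azoxymethane at 12 mg/kg, a colon carcinogen, preceded 3 cycles of 2.5% dextran sodium sulfate, an agent that injures the colon lining. Each cycle had 7 days of dextran sodium sulfate and 14 days of water. Mice were put on the fasting-mimicking diet (FMD) from cycle 2, against mice fed ad libitum with the same carcinogen and colitis cycles. Each diet was 1 droplet 3′ single-cell library pooled from 4 mice, so diet, mice and library handling cannot be told apart, and brackets below hold 95% intervals for counting error only. No test between diets was possible.

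The products of Il17a and Il17f, made as homodimers or as a heterodimer, act on epithelial, stromal and myeloid cells through a receptor that contains the Il17ra product, and they induce neutrophil-attracting chemokines and antimicrobial peptides. Interleukin 22 acts on epithelial cells, whose receptor for it leukocytes lack, and in the colon it is known for barrier repair and for growth of epithelial tumors. The cells that make these cytokines, helper T cells of type 17, many gamma delta T cells and innate lymphoid cells of group 3, respond to interleukin 23 through the Il23r product and to interleukin 1 through the Il1r1 product.

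Il17a (ENSMUSG00000025929) lies on chromosome 1 from 20730905 to 20734496 on the plus strand in GRCm38, and Il17f (ENSMUSG00000041872) lies on the same chromosome from 20777146 to 20790617 on the minus strand. Il1r1 (ENSMUSG00000026072) is also on chromosome 1, from 40225080 to 40317257. Il22 (ENSMUSG00000074695) spans 118204942 to 118210047 on chromosome 10, and its near-identical copy Iltifb spans 118289629 to 118295038 on the same chromosome. Reads that match both may have been left out or given to either, and the Il22 values carry that uncertainty. Il23r (ENSMUSG00000049093) and Il17ra (ENSMUSG00000002897) are on chromosome 6, from 67422932 to 67491855 and from 120463247 to 120487559. All 6 are protein-coding.

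RefSeq promoter windows (GRCm38.p6, 250 bases before the start site to 50 after it) were at hand for 5 of the 6 genes, with none for Il17ra. The windows of the 3 cytokine genes, which were lower together in FMD helper T-like cells, are shown with matches to TATAAA on either strand in capitals, letters of the TATA box that positions the transcription machinery at many inducible genes. The motif was chosen after the letters and the values had been seen. Motifs of the factor families STAT and AP-1 were searched as well. The STAT motif, present in 8.3% of all windows, had no match in the windows of these genes. The AP-1 motif, present in 7.81%, matched in the Il17a window alone. The Il17a window is chr1:20730655-20730954 (plus strand), the Il17f window chr1:20784221-20784520 (minus strand) and the Il22 window chr10:118204714-118205013 (plus strand), each printed on its gene's strand.
Il17a: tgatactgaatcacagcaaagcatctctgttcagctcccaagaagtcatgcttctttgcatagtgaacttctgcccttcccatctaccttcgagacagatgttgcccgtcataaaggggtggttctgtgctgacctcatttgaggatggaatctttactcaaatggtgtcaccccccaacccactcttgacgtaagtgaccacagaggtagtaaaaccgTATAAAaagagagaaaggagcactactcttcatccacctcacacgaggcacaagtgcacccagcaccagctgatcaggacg
Il17f: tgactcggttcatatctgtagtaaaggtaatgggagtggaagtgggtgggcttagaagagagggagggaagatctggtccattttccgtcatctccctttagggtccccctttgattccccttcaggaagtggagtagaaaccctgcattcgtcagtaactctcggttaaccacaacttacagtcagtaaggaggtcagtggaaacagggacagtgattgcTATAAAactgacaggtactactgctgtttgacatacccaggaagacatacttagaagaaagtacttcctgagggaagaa
Il22: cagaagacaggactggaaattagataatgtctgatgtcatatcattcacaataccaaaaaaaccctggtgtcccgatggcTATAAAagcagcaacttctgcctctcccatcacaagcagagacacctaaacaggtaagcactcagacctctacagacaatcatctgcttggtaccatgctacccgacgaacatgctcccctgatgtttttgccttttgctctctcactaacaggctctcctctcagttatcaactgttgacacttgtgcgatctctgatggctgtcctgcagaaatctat
The match began 31 bases before the start site of Il17a, 29 before that of Il17f and 170 before that of Il22. The Il17f window lies inside the gene span given above, so its RefSeq start site is not the end of that span. The Il23r window and both Il1r1 windows held no match. TATAAA or its complement was present in 13.62% of all 32851 windows of the table, so these matches describe the letters and no binding.

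The FMD library had 5877 barcodes with 35280790 UMIs (counts of unique molecules) and the ad libitum library 6089 with 35712762. After cells with few genes, many mitochondrial UMIs or mixed lineage markers were removed, 4614 FMD and 4862 ad libitum cells were kept, with medians of 5739 and 5504 UMIs. Classes were rebuilt by clustering with the 6 genes left out, and are called "-like" after their markers. The helper T-like class had 421 FMD and 454 ad libitum cells, regulatory T-like 322 and 227, gamma delta T-like 47 and 69, and innate lymphoid-like 141 and 53. Over both libraries, a UMI of a Cd3 gene was found in 92.71% of the cells of the regulatory T-like cluster, in 96.04% and 98.11% of those of the helper T-like clusters and in all 116 cells of the gamma delta T-like cluster, of which 98.28% had a UMI of Trdc, the delta receptor constant gene. Foxp3, the factor that defines regulatory T cells, was found in 80.15% of the regulatory T-like cluster. In the innate lymphoid-like clusters a Cd3 UMI was found in 17.98% and 15.24% of cells. Il7r was found in 64.04% and 91.43% of them, and Id2 in 76.4% and 90.48%. The first of these clusters, which held nearly all Il22 of the class, had Cd4 in 12.36% and Trdc in 12.36% of its cells. The libraries shared 7 barcodes, of which 4 were kept in both and 0 held a UMI of Il17a, Il17f or Il22.

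The first question was which cells held the 6 genes. A level here is the UMIs of a gene summed over a class and divided by that class's UMIs outside immunoglobulin and mitochondrial genes, scaled to 1000000 (CPM). Il17a was highest in gamma delta T-like cells, at 1585 CPM [1458, 1719] in FMD and 3158 [3014, 3307] in ad libitum. Helper T-like cells came next, with 55.3 [47.4, 64.2] in FMD and 292 [273, 311] in ad libitum, and regulatory T-like cells held 39.1 [31.3, 48.1] and 49.97 [39.4, 62.4]. In the FMD library the intervals of helper and regulatory T-like cells overlapped narrowly, while in the ad libitum library they did not overlap. B-like cells, which should not make the cytokine, gave 0 Il17a UMIs in 2761 FMD cells, which allows a share of cells with a UMI of up to 0.109% (the limit of 3 cells of the total), and 8 UMIs in 8 of 3084 ad libitum cells (0.259%), at median depths of 5210 and 5063.5 UMIs per cell. The shares below are to be read against these, and the source of the UMIs in B-like cells was not tested.

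Il17f was also found in gamma delta T-like cells, with 137 CPM [101.6, 180] in FMD and 167 [135, 204] in ad libitum, but these came from 2 FMD and 3 ad libitum cells. In helper T-like cells Il17f stood at 25.4 [20.1, 31.7] in FMD and 136 [123, 149] in ad libitum, from 26 and 50 cells. Innate lymphoid-like cells held 33 Il17f UMIs in 3 FMD cells, the most in 1 cell being 28, and 0 in 53 ad libitum cells.

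Il22 had a different place. Its highest level was in innate lymphoid-like cells, at 729 CPM [677, 785] in FMD and 1069 [967, 1179] in ad libitum, and helper T-like cells followed with 68.5 [59.6, 78.4] and 171 [158, 186]. Of the 712 FMD UMIs in innate lymphoid-like cells, 402 lay in 2 cells that passed a helper gate on Cd3 and Cd4 UMIs. The 1 ad libitum cell of the class that passed it held 0. Whether the 2 FMD cells are innate lymphoid or helper T cells was not tested. Gamma delta T-like cells held 0 Il22 UMIs in 47 FMD cells and 56 in 69 ad libitum cells, all 56 in 1 cell. In B-like cells Il22 was found in 7 FMD cells (0.254%) and 10 ad libitum cells (0.324%).

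The receptors of the inducing cytokines were both highest in gamma delta T-like cells. Il1r1, the signaling receptor of interleukin 1, stood at 142 CPM [106, 187] in FMD and 146 [117, 181] in ad libitum gamma delta T-like cells. It was lower in helper T-like cells, at 30.6 [24.7, 37.4] and 38.6 [32.1, 45.9], and in regulatory T-like cells, at 30.2 [23.4, 38.3] and 18.2 [12.1, 26.3], where the intervals of helper and regulatory T-like cells overlap in FMD and not in ad libitum. Il23r, the specific chain of the interleukin 23 receptor, stood at 49.3 [29.2, 77.9] in FMD and 50.5 [33.8, 72.5] in ad libitum gamma delta T-like cells, and at 14.2 [10.3, 19] and 18.4 [14.0, 23.7] in helper T-like cells. Regulatory T-like cells, with 15.5 [10.8, 21.6] and 18.8 [12.6, 27.0], could not be told from helper T-like cells in Il23r. In CD8 T-like and other T-like cells, 0 UMIs of Il23r and 0 of Il1r1 were counted in either library.

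Il17ra, the receptor chain for the Il17a and Il17f products, had no such order. It was found in 26.0% of FMD and 25.2% of ad libitum cells and in all 12 named classes of both libraries. Its levels ran between 41.9 [38.7, 45.4] in B-like and 147 [87.3, 233] in mast-like cells of the FMD library, and between 31.9 [16.5, 55.7] in innate lymphoid-like and 112 [41.0, 243] in mast-like cells of the ad libitum library. Macrophage or dendritic-like cells stood at 106 [93.2, 120] in FMD and 101 [85.1, 118] in ad libitum, and neutrophil-like cells at 138 [91.4, 199] and 82.6 [54.0, 121].

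**Figure D1:**
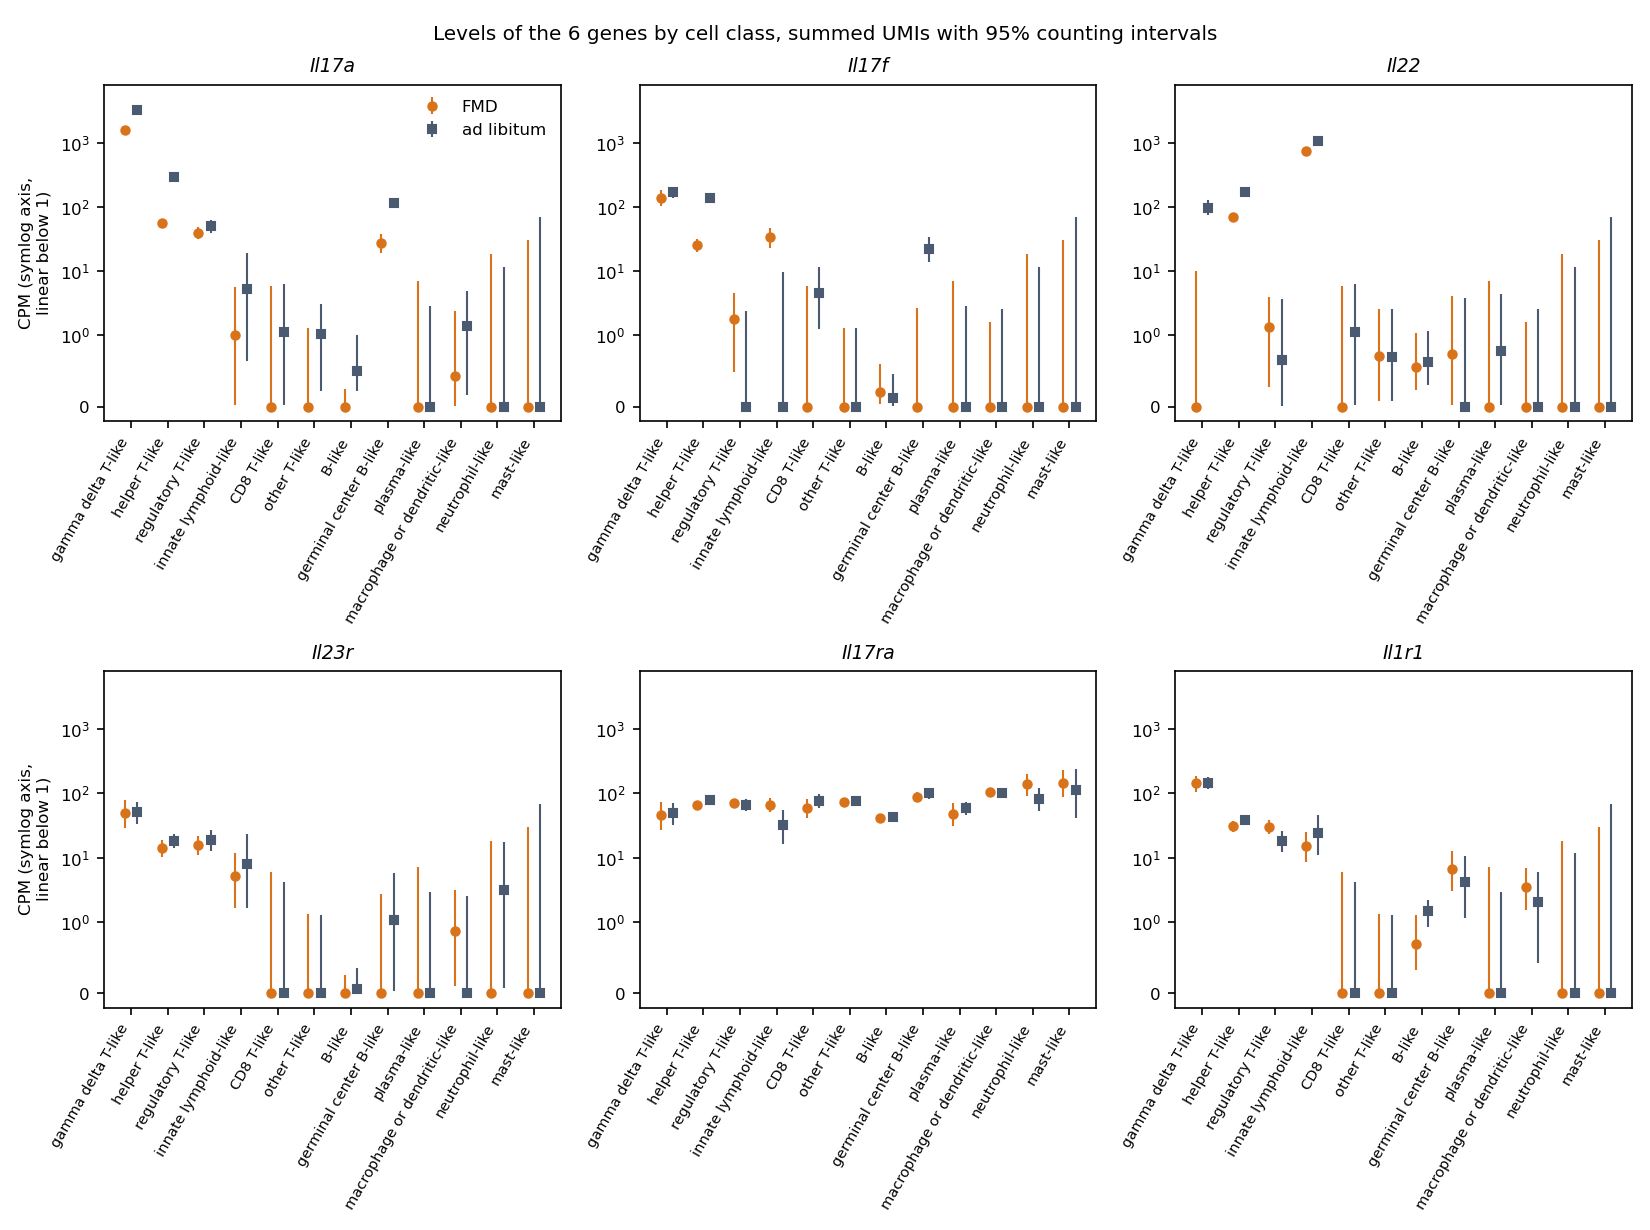
Level of each of the 6 genes, in CPM, by class, with FMD as circles and ad libitum as squares. Bars are 95% counting intervals on an axis that is logarithmic above 1 and linear below it. Il17a, Il23r and Il1r1 are highest in gamma delta T-like cells and Il22 in innate lymphoid-like cells, while Il17ra is spread over all 12 classes shown.

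Seen as shares of each library's UMIs, 47 gamma delta T-like cells held 65.87% of the 879 Il17a UMIs of the FMD library, and 69 held 61.11% of the 2970 of the ad libitum library. Helper T-like cells held 19.57% of Il17a in FMD and 32.05% in ad libitum, and regulatory T-like cells 10.01% and 2.59%. Of the 169 Il17f UMIs in FMD, 46.75% lay in helper T-like cells, against 77.99% of 568 in ad libitum. Innate lymphoid-like cells held 75.83% of the 939 Il22 UMIs in FMD and 38.92% of 1033 in ad libitum, and helper T-like cells held 22.68% in FMD and 54.21% in ad libitum. These shares move with the number of cells of each class, and innate lymphoid-like cells were 3.06% of FMD and 1.09% of ad libitum cells. The FMD shares of Il22 also depend on the class of the 2 cells that passed the helper gate. These held 402 of the 712 FMD Il22 UMIs counted as innate lymphoid-like, and their identity was not tested.

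**Figure D2:**
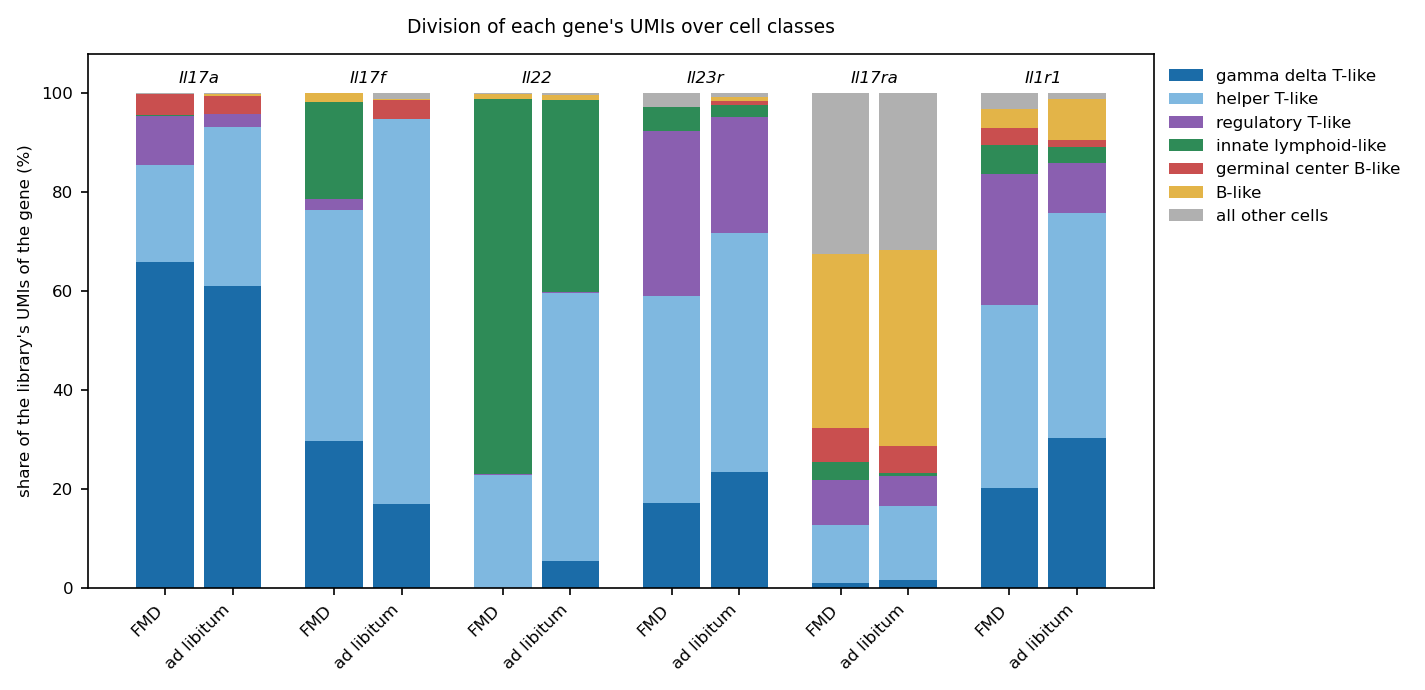
Share of each library's UMIs of a gene that each class held, in percent, with FMD left and ad libitum right for each gene. Gamma delta T-like cells hold most Il17a in both libraries, and innate lymphoid-like cells hold 75.83% of Il22 in FMD, against 38.92% in ad libitum. Of the 712 FMD Il22 UMIs of innate lymphoid-like cells, 402 lie in 2 cells that also passed the helper gate.

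The second question was how the levels compared between diets. In helper T-like cells Il17a counted 172 UMIs in 33 of 421 FMD cells, against 952 UMIs in 64 of 454 ad libitum cells. That level was 5.27-fold lower in FMD, a log2 ratio (FMD over ad libitum) of −2.40 [−2.64, −2.16]. Il17f counted 79 UMIs in 26 FMD cells and 443 in 50 ad libitum cells, 5.34-fold lower in FMD at −2.42 [−2.78, −2.07]. Il22 counted 213 UMIs in 49 FMD cells and 560 in 55 ad libitum cells, 2.50-fold lower in FMD at −1.32 [−1.56, −1.09]. These 3 of the 6 genes were at least 2-fold lower in FMD, a size reached by 0.548% of the 7663 genes with at least 50 UMIs in the class, and 0 were at least 2-fold higher, against 0.222% of genes. The genes were chosen on this difference. Il22 did not keep that size under every setting: it was at −0.68 [−1.04, −0.33] without the 5 highest cells of each library, and at 0.76 [0.56, 0.96] where helper cells were taken by a gate on marker UMIs, with most of its FMD UMIs then in 2 cells of the innate lymphoid-like class.

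The gap lay in UMIs per producing cell as well as in their number. Among helper T-like cells with an Il17a UMI, the median was 4.0 UMIs and the highest 19 in FMD, against a median of 7.0 and a highest of 115 in ad libitum. Cells with at least 10 Il17a UMIs numbered 7 in FMD and 25 in ad libitum, and these 25 held 813 of the 952 UMIs. For Il17f such cells numbered 2 and 14, with highest values of 19 and 61, and for Il22 they numbered 3 and 10, with highest values of 52 and 130. For Il22 the share of cells with a UMI was nearly the same, 11.6% in FMD and 12.1% in ad libitum, with a median of 2.0 UMIs in both, so its difference sat in the upper cells. After each cell was thinned to 1000 UMIs, 12 of 416 FMD cells (2.88% [1.499, 4.99]) and 32 of 453 ad libitum cells (7.06% [4.88, 9.83]) kept an Il17a UMI, against 7.84% and 14.1% before thinning. Median depths of the class were 7218 and 7200.5 UMIs.

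The helper T-like class joined a pair of clusters. The cluster led by Tnfsf11 and Ccl20, with 227 FMD and 278 ad libitum cells, held 168 of the FMD and 945 of the ad libitum Il17a UMIs, a log2 ratio of −2.28 [−2.52, −2.04]. There Il1r1 was also lower in FMD, with 39 UMIs against 83 in ad libitum (−0.88 [−1.47, −0.31]), whereas over the whole class Il1r1 was at −0.34 [−0.74, 0.06]. The cluster led by Izumo1r and Sh2d1a, genes known in follicular helper T cells, had 4 Il17a UMIs in 194 FMD cells and 7 in 176 ad libitum cells. Its Il22 lay on the other side: 57 UMIs in 17 FMD cells, against 24 in 12 ad libitum cells, a log2 ratio of 1.10 [0.39, 1.85].

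The receptors lay closer to even in helper T-like cells. Il23r counted 44 UMIs in 26 FMD cells and 60 in 50 ad libitum cells (−0.38 [−0.97, 0.21]). Il17ra counted 201 in 150 FMD cells and 258 in 172 ad libitum cells (−0.29 [−0.56, −0.02]). The interval of Il23r reaches from a level near 2-fold lower to slightly higher in FMD. Its value moved with the setting: it was −1.13 [−2.99, 0.47] from 5 FMD and 12 ad libitum UMIs after thinning, −0.81 [−1.56, −0.09] without the 5 highest cells of each library, −0.96 [−1.78, −0.18] with the marker gate and −0.74 [−1.38, −0.11] with the type 17 list left out of clustering. The last 3 of these intervals leave out 0. Il17ra was at −0.14 [−0.48, 0.20] in the Tnfsf11 and Ccl20 cluster and at −0.52 [−0.99, −0.06] in the Izumo1r and Sh2d1a cluster.

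**Figure D3:**
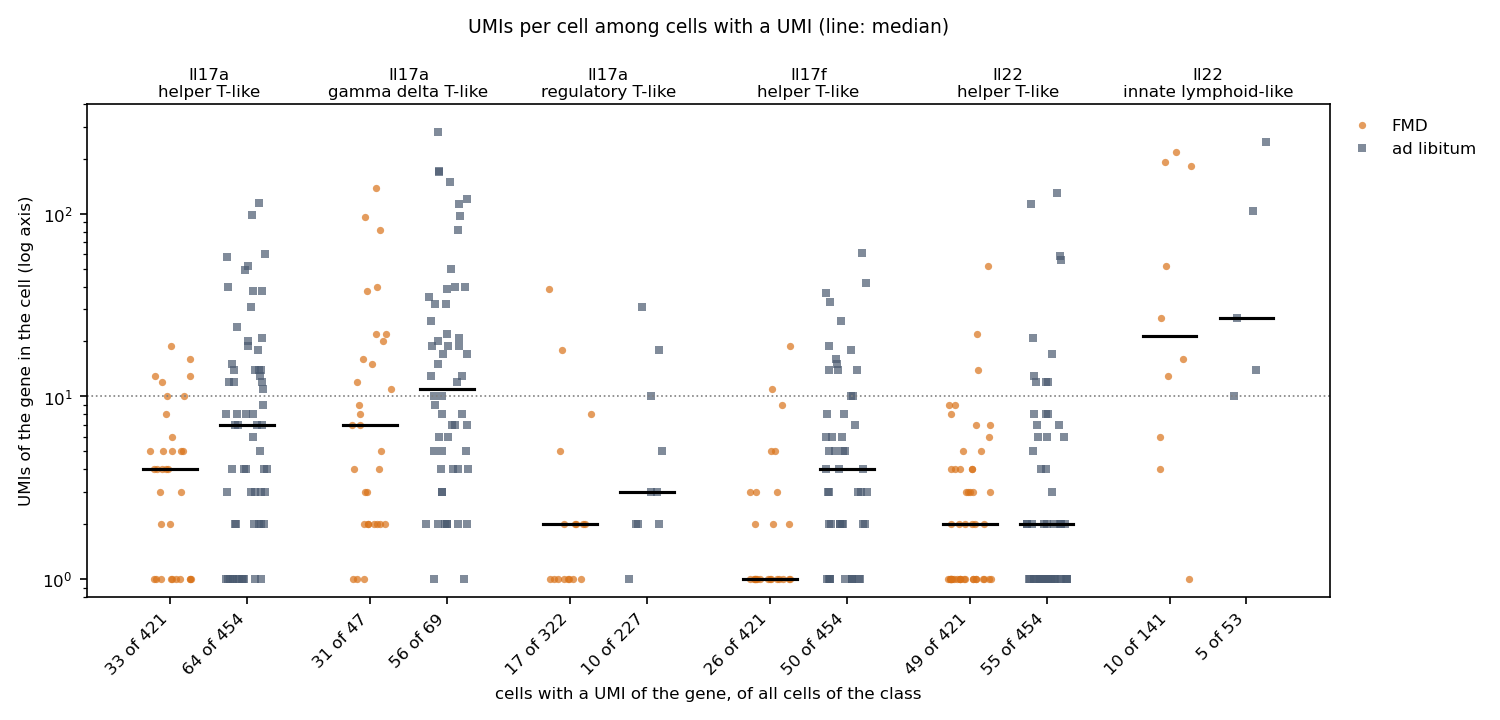
UMIs of a gene in each cell that had at least 1, on a log axis, with FMD as circles left of ad libitum as squares; black lines are medians and the dotted line marks 10 UMIs. In helper T-like cells the highest Il17a value is 19 in FMD and 115 in ad libitum, and for Il22 in innate lymphoid-like cells the highest values are 219 and 248.

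In gamma delta T-like cells Il17a counted 579 UMIs in 31 of 47 FMD cells, against 1815 UMIs in 56 of 69 ad libitum cells, 1.99-fold lower in FMD at −0.99 [−1.13, −0.86]. Without the 5 highest cells of each library it was −1.62 [−1.86, −1.39]. The values of single cells overlapped over most of their range. The median with a UMI was 7 in FMD and 11 in ad libitum, the highest 138 and 281, and 12 and 30 cells held at least 10. After thinning, 17 of 47 FMD cells (36.2% [22.7, 51.5]) and 37 of 69 ad libitum cells (53.6% [41.2, 65.7]) kept an Il17a UMI, intervals that overlap, against 66.0% and 81.2% before. Il17f in the class gave −0.29 [−0.81, 0.22], but 49 of its 50 FMD UMIs lay in 1 cell and 62 of its 96 ad libitum UMIs in another. Without the highest cell of each library, 1 FMD and 34 ad libitum UMIs were left, a log2 ratio of −4.41 [−9.76, −1.84]. Il1r1 counted 52 UMIs in 27 FMD cells and 84 in 39 ad libitum cells, a log2 ratio of −0.04 [−0.57, 0.48]. Under the minimum of 50 UMIs, Il23r had 18 UMIs in 14 FMD cells and 29 in 18 ad libitum cells (−0.03 [−0.97, 0.86]), and Il17ra 17 in 15 FMD cells and 28 in 20 ad libitum cells (−0.07 [−1.03, 0.85]). Of the 4 members with at least 50 UMIs here, 1 was at least 2-fold lower, against 0.791% of 3033 genes, and 0 were at least 2-fold higher, against 0.824%. That 1 was Il22, which passed only through the 56 UMIs of 1 ad libitum cell.

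In regulatory T-like cells Il17a counted 88 UMIs in 17 of 322 FMD cells and 77 in 10 of 227 ad libitum cells, a log2 ratio of −0.36 [−0.81, 0.10]. The highest cells held 39 and 31 UMIs. The ratio was 0.11 [−1.11, 1.42] without the 5 highest cells of each library, and −0.85 [−1.43, −0.28] with the 6 genes kept for clustering, which left 49 FMD and 59 ad libitum UMIs in the class. Il17f had 4 UMIs in FMD and 0 in ad libitum, and Il22 had 3 and 1. Il1r1 was higher in FMD, with 68 UMIs in 45 cells against 28 in 21 ad libitum cells, at 0.73 [0.08, 1.42]. Its interval crossed 0 with doublets kept, at 0.52 [−0.15, 1.22], with at most 10% mitochondrial UMIs, at 0.58 [−0.14, 1.34], and after thinning, at 0.96 [−0.79, 3.07]. Il23r gave 35 and 29 UMIs (−0.28 [−1.03, 0.49]) and Il17ra 158 and 102 (0.08 [−0.29, 0.46]). Of the 4 members that passed the minimum, 0 were 2-fold apart, where that distance was reached by 0.68% of 6616 genes upward and 0.559% downward in FMD.

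In innate lymphoid-like cells nearly all Il22 lay in the cluster led by Xcl1 and Klrb1b, which had 60 FMD and 29 ad libitum cells. Il22 was read in 9 of these FMD cells and 5 of these ad libitum cells. Over the class, the FMD cells with Il22 held 219, 191, 183, 52, 27, 16, 13, 6, 4 and 1 UMIs, and the ad libitum cells 248, 103, 27, 14 and 10. The 2 sets overlap, and the highest cell was in the ad libitum library. The level in the Xcl1 and Klrb1b cluster was 1889 CPM [1753, 2033] in FMD and 1989 [1799, 2193] in ad libitum, a log2 ratio of −0.07 [−0.25, 0.11]. Of the 711 FMD UMIs there, 402 lay in the 2 cells that passed the helper gate, so this ratio depends on their identity. Over the whole class the ratio was −0.55 [−0.73, −0.37], with the same 2 cells included. There the other cluster, led by Calca and Il5 and nearly without Il22, made up 81 of 141 FMD cells and 24 of 53 ad libitum cells. The part of this mix was not tested. Without the highest cell of each library the class ratio turned to 0.30 [0.03, 0.57], and after thinning it was −1.25 [−1.78, −0.72]. Il17ra was higher in FMD, with 64 UMIs in 48 of 141 cells against 12 in 10 of 53 ad libitum cells (1.04 [0.14, 2.06]). By cluster, it had 27 UMIs in FMD and 9 in ad libitum in the Xcl1 and Klrb1b cluster, 0.69 [−0.44, 1.96] and across 0, and 37 and 3 in the Calca and Il5 cluster, 1.84 [0.18, 4.18]. Both clusters were under the minimum of 50 UMIs. A gate on marker UMIs gave 51 and 4, or 2.32 [0.88, 4.25], and without the 5 highest cells of each library it was 1.87 [0.55, 3.55]. The other receptors and Il17a were sparse, with 15 UMIs of Il1r1 in FMD and 9 in ad libitum (−0.64 [−1.93, 0.73]), 5 and 3 of Il23r (−0.64 [−3.001, 2.05]) and 1 and 2 of Il17a. Of the 2 members that passed the minimum, 1 was at least 2-fold higher, against 1.42% of 3453 genes, and 0 at least 2-fold lower, against 1.59%.

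Outside these classes a cluster of dividing cells, named germinal center B-like by its genes, held 37 Il17a UMIs in 1 FMD cell and 110 in 3 ad libitum cells. The ad libitum cell with 104 of them had 32 Cd3 UMIs and 1 UMI of the B cell panel, and the FMD cell had 12 and 65. Whether these are dividing T cells or mixed droplets was not tested. Over all kept cells the log2 ratio was −1.75 [−1.86, −1.64] for Il17a (85 FMD and 149 ad libitum cells with a UMI), −1.74 [−2.001, −1.49] for Il17f (34 and 59 cells), −0.13 [−0.26, −0.0046] for Il22 (72 and 76 cells), −0.24 [−0.62, 0.15] for Il23r, 0.01 [−0.09, 0.11] for Il17ra and −0.10 [−0.35, 0.15] for Il1r1. Il17a and Il17f were thus at least 2-fold lower, against 0.854% of 11593 genes, and 0 members were at least 2-fold higher, against 1.17%.

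**Figure D4:**
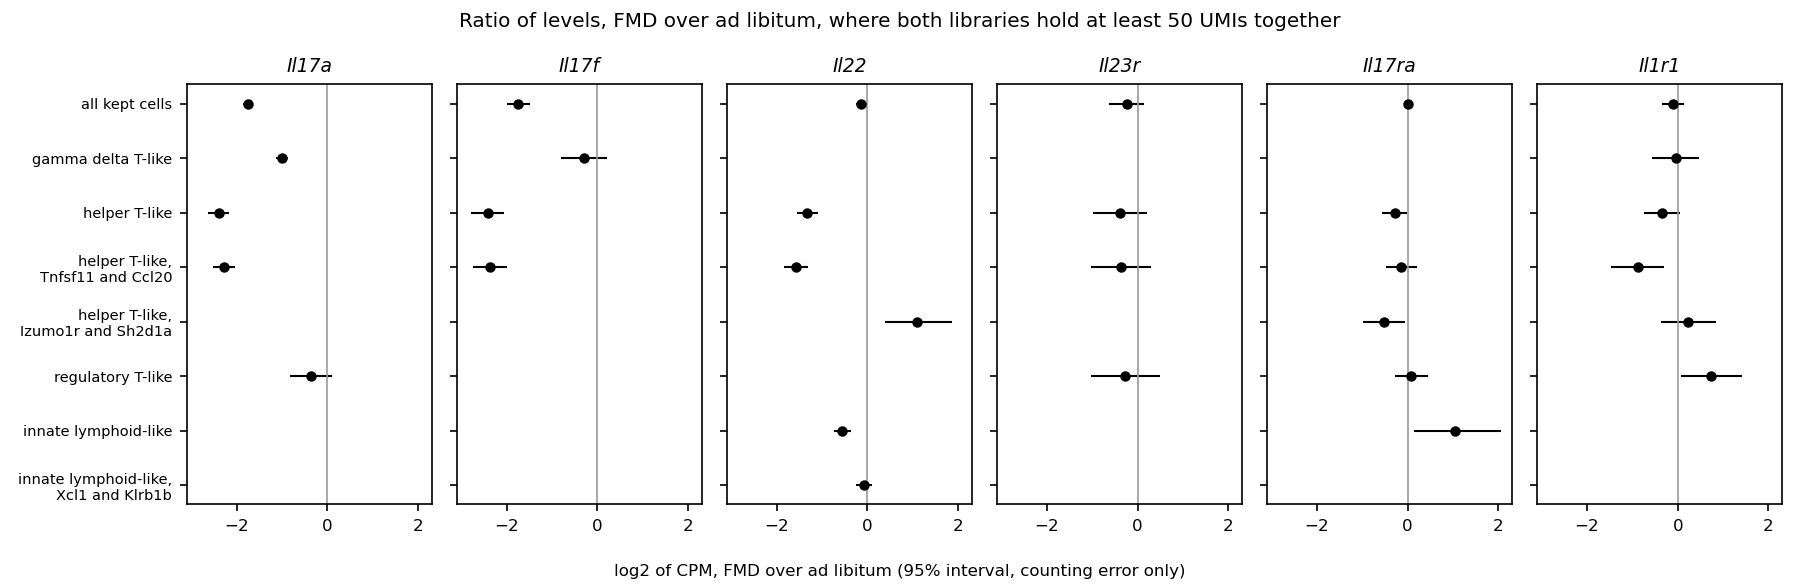
Log2 ratio of the level of each gene, FMD over ad libitum, in all kept cells and in the classes and clusters with at least 50 UMIs of the gene over both libraries; bars are 95% counting intervals and the gray line is 0. Il17a and Il17f lie furthest left in helper T-like cells, Il22 lies on opposite sides of 0 in the helper clusters, and among the receptors the interval leaves out 0 for Il17ra in helper and innate lymphoid-like cells and in the Izumo1r and Sh2d1a cluster, and for Il1r1 in the Tnfsf11 and Ccl20 cluster and in regulatory T-like cells.

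The cytokines were next read within single cells. Of the helper T-like cells, 78 of 421 FMD cells (18.53%) and 109 of 454 ad libitum cells (24.01%) had a UMI of at least 1 of the 3 cytokines. All 3 were found in 7 FMD and 14 ad libitum cells, Il17a and Il17f without Il22 in 7 and 20, and Il22 alone in 33 and 29. Il22 alone was thus the most frequent set in both libraries. In gamma delta T-like cells Il17a stood alone in 29 of 31 FMD and 52 of 56 ad libitum cells with a cytokine UMI.

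UMIs of Il23r and Il1r1 were found more often in helper T-like cells with Il17a than in those without. Il23r was present in 10 of 33 FMD cells with Il17a (30.30%) and in 16 of 388 without (4.12%), and in 19 of 64 (29.69%) and 31 of 390 (7.95%) of the ad libitum cells. Il1r1 was present in 10 of 33 FMD cells with Il17a (30.30%) against 50 of 388 without (12.89%), and in 26 of 64 ad libitum cells with Il17a (40.62%) against 64 of 390 without (16.41%). Il17ra went opposite ways, at 45.45% with and 34.79% without Il17a in FMD and at 34.38% with and 38.46% without in ad libitum. Of the cells with Il17a, 32 in FMD and 59 in ad libitum lay in the Tnfsf11 and Ccl20 cluster. That cluster held 35 of 44 FMD and 52 of 60 ad libitum Il23r UMIs of the class, and 39 of 95 and 83 of 126 Il1r1 UMIs. Cells with Il17a were also deeper, with medians of 9634 against 7103.5 UMIs in FMD and 7526.5 against 7147.5 in ad libitum. The parts of cluster and depth in these shares were not tested.

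In gamma delta T-like cells, Il1r1 was found in 20 of 31 FMD cells with Il17a (64.52%) and 7 of 16 without (43.75%), and in 36 of 56 ad libitum cells with Il17a (64.29%) and 3 of 13 without (23.08%). Il23r did not follow this, at 25.81% with and 37.5% without Il17a in FMD, and 25.0% with and 30.77% without in ad libitum. In the Xcl1 and Klrb1b cluster of innate lymphoid-like cells, 5 of 9 FMD cells with Il22 had an Il1r1 UMI and 2 of 51 without did. For the ad libitum cells these counts were 3 of 5 and 2 of 24. Of the regulatory T-like cells with Il17a, 13 of 17 in FMD (76.47%) and 8 of 10 in ad libitum (80.0%) had a Foxp3 UMI, close to the 82.95% and 76.5% of the cells without Il17a. Il10, the gene of a suppressive cytokine, was found in 11 of 17 FMD cells with Il17a and 46.23% of those without, and in 7 of 10 ad libitum cells with Il17a and 25.35% of those without. Here too the cells with Il17a were deeper, with medians of 9370 against 6535 UMIs in FMD and 9781 against 6472 in ad libitum.

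The wider type 17 program was read from a list of 71 genes, grouped as inducing ligands, other ligands, receptors, transcription factors, signaling genes and surface or other genes of type 17 cells. In helper T-like cells 46 had at least 50 UMIs. Of these, 3 were higher and 18 lower in FMD by an interval that leaves out 0, where 5.59% of all 7663 genes were higher and 7.61% lower. The list's median log2 ratio was −0.079, against −0.02 for all genes. At least 2-fold lower were Ccl20, the ligand that draws CCR6-bearing cells, with 86 UMIs in 9 FMD cells against 446 in 35 ad libitum cells (−2.30 [−2.65, −1.97]), Il21, a helper T cytokine, with 49 and 115 UMIs (−1.16 [−1.67, −0.67]), and Il17re, a receptor chain for the Il17c product, with 47 and 108 UMIs (−1.13 [−1.66, −0.62]). The Il22 copy Iltifb was lower as well, with 38 UMIs in FMD and 75 in ad libitum (−0.91 [−1.51, −0.33]). Among the factors known to support type 17 cells, Irf4 stood at −0.87 [−1.17, −0.58], Batf at −0.32 [−0.47, −0.18], Stat3 at −0.24 [−0.37, −0.10] and Rora at −0.17 [−0.25, −0.09], whereas Maf and Ahr had intervals across 0. Tbx21, the type 1 factor, was higher, with 81 UMIs in FMD and 56 in ad libitum (0.60 [0.09, 1.12]). B cell markers summed to 59.2 CPM in FMD and 49.6 in ad libitum helper T-like cells, plasma cell markers to 187 and 263, and gamma delta markers to 58.5 and 42.6, and their part in these differences was not tested.

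**Figure D5:**
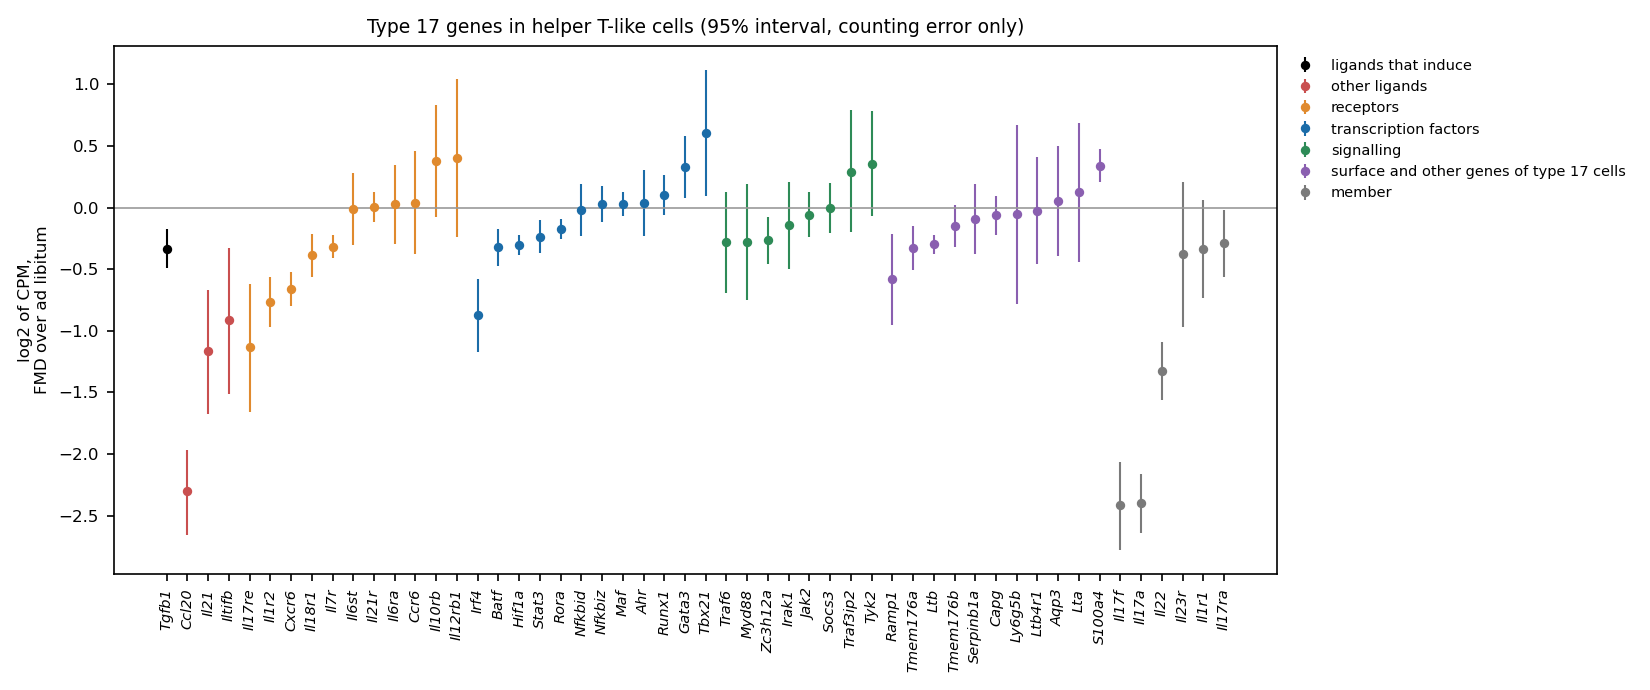
Log2 ratio, FMD over ad libitum, of the 6 genes (gray) and of the type 17 list genes with at least 50 UMIs in helper T-like cells, colored by role, with 95% counting intervals. Il17a, Il17f and Ccl20 lie below −2, and Il22 lies at −1.32.

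In regulatory T-like cells 41 list genes passed, with 12 higher and 7 lower in FMD, against 9.92% and 6.95% of all genes, and medians of 0.0021 for the list and 0.05 for all genes. The gene at least 2-fold apart was Aqp3, a water and glycerol channel, with 46 UMIs in FMD and 11 in ad libitum (1.52 [0.55, 2.61]). Il12rb1, whose product pairs with that of Il23r, was higher, with 109 UMIs against 47 (0.67 [0.16, 1.19]). B cell markers summed to 122 CPM in FMD and 46.7 in ad libitum regulatory T-like cells, and macrophage or monocyte markers to 725 and 525, and their part in these differences was not tested. Of the 9 macrophage or monocyte markers, 4 had 0 UMIs in each library, and another, Ccr2, was among the genes that led this cluster. In gamma delta T-like cells 32 passed, with 8 higher and 4 lower, against 8.51% and 6.69% of all genes. Il1r2, the decoy receptor for interleukin 1, was lower in FMD with 20 UMIs against 82 (−1.38 [−2.17, −0.66]), as was Jak2, a kinase of cytokine receptors, with 12 against 41 (−1.12 [−2.18, −0.16]). Il17re there gave 21 against 16 UMIs, under the minimum. B cell markers there summed to 68.4 CPM in FMD and 41.8 in ad libitum, from 25 and 24 UMIs, and their part was not tested. In innate lymphoid-like cells 34 passed, with 8 higher and 7 lower, against 7.07% and 8.57% of all genes. Il6 was higher in FMD with 86 UMIs in 10 cells against 1 UMI (5.05 [2.53, 10.37]), and Lta, a ligand of the lymphotoxin pathway, with 61 against 10 (1.23 [0.26, 2.36]). The unequal mix of clusters in this class, given above, moves with these values, as do plasma cell markers, which summed to 187 CPM in FMD and 300.5 in ad libitum, and their part was not tested.

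Of the partner chains of the receptors, Il17rc was the sparsest. This partner of the Il17ra product had 13 UMIs in FMD and 30 in ad libitum over all kept cells. Il1rap, the partner of the Il1r1 product, had 178 and 194. Il12rb1, the partner of the Il23r product, had 263 and 171, against 105 and 124 of Il23r itself. Of the inducing ligands, Il1b, Il1a, Il23a and Il12b came mostly from other classes. Il1b, the interleukin 1 gene of myeloid cells, had 10492 UMIs in FMD and 10730 in ad libitum, of which macrophage or dendritic-like cells held 72.48% and 50.35% and neutrophil-like cells 17.84% and 43.74%. Its level was lower in FMD neutrophil-like cells, at 9196 CPM against 14913 in ad libitum (−0.70 [−0.78, −0.62]). In macrophage or dendritic-like cells it was at −0.17 [−0.22, −0.12], and in B-like cells it was higher in FMD, at 0.54 [0.25, 0.83]. Over all kept cells the ratio was −0.03 [−0.07, 0.01]. Il23a, the specific subunit of interleukin 23, had 15 UMIs in 5 FMD cells and 93 in 16 ad libitum cells, of which macrophage or dendritic-like cells held 3 UMIs in 2 FMD cells and 66 in 5 ad libitum cells (−5.13 [−7.44, −3.52]), so that few cells carry this difference. Il12b, the shared subunit, had 3 UMIs in FMD and 9 in ad libitum, and Il1a had 248 and 400. Il6 was higher in FMD over all kept cells, with 461 UMIs against 239 (0.95 [0.72, 1.18]). Mast-like cells held 77.01% of it in FMD and 86.19% in ad libitum, and innate lymphoid-like cells 18.66% and 0.42%. Tgfb1 was found in the T classes too, with 567 and 750 UMIs in helper T-like and 757 and 453 in regulatory T-like cells.

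Finally, genes with a like pattern were sought over 22 points, each a class in 1 library with at least 20 cells, among 10636 genes with at least 100 UMIs. The measure was Pearson's r of log2 (level + 10), given as a description, since points share libraries, depth and the contrast between gamma delta T-like cells and the rest. Il17a was most like Ppp1r14c (r = 0.965), followed by Ly6g5b (0.914), Sgip1 (0.901), 1700012B07Rik (0.899) and March2 (0.891). Il17f was most like Il17re (0.887), Ppp1r14c (0.868), Cpe (0.84), Nmrk1 (0.837) and Sema4f (0.822). Il22 was most like 4932438H23Rik (0.953), Hey1 (0.873), Calca (0.862), Il4 (0.854) and B3galt2 (0.852), genes high in the innate lymphoid-like points. These points join both clusters of the class, of which the one led by Calca and Il5 held 1 Il22 UMI in FMD and 0 in ad libitum, so Il22 and Calca stand high in different clusters. Il23r and Il1r1 shared 1700012B07Rik (0.96 and 0.961), Plcb4 (0.957 and 0.953), Fam124b (0.949 and 0.96) and Adam12 (0.947 and 0.94). The fifth gene of Il23r was Olfr60 (0.95), and that of Il1r1 was Spry1 (0.938). Il17ra had lower values, led by Palm (0.79), Zfand2a (0.789), Klhdc10 (0.782), Noct (0.755) and Oas1a (0.734).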

How the data were processed

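Per the labels' protocols, tumor-bearing and matched normal colon pieces were digested, leukocytes were enriched on a Percoll gradient, and droplet 3′ V3 libraries were made; the titles call both libraries tumor tissue. The submitters' processing notes name CASAVA 1.8, Cell Ranger 3.1.0, Seurat 2.3.4 and the assembly GRCm38, without roles. The deposited matrices hold raw UMI counts per gene and barcode, not normalized. The authors' cell names were not used here.

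Cells with at least 200 genes and at most 20% mitochondrial UMIs were kept. Scrublet called 2 FMD and 2 ad libitum cells, too few to have worked, so cells with at least 5 UMIs, and 0.5 per 1000, of 2 of the B, T and myeloid panels were removed as doublets (128 FMD, 91 ad libitum). Leiden clusters (scanpy 1.11.5, leidenalg 0.10.2, resolution 1, 30 components, 15 neighbors, 2000 variable genes without the 6 genes, no batch correction) were named from marker lists. A cluster with Cd3 UMIs in part of its cells was split at resolution 0.3, a step chosen after seeing the data. Ratios have exact conditional intervals, levels exact Poisson and shares exact Clopper-Pearson ones, all covering counting error only. The interval and thinning code was tested on simulated data. The depth was 31875589 kept UMIs in FMD and 33205963 in ad libitum.

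The members and lists were chosen with earlier results of these data known. Named were all 6 members, compared between diets in the helper, regulatory, gamma delta and innate lymphoid-like classes and plotted as levels in the others. Of the type 17 list, genes at least 2-fold apart with at least 50 UMIs and an interval without 0 were named, and Il17rc, Il17re, Il1rap and Il12rb1 in any case. A further gene of the list is not reported here. Ligands and other factors of that list were added after their values were seen. The 5 genes most like each member were named too. Alternatives were thinning, the denominator, leaving out top cells, filters, resolution, clustering genes and a marker gate.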

Additional observations from a re-analysis of the deposited data

Results flagged for a closer look

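Il22 had ratios of opposite sign in the helper T-like clusters. It was higher in FMD in the cluster led by Izumo1r and Sh2d1a (57 UMIs against 24 in ad libitum, 1.10) and lower in FMD in the cluster led by Tnfsf11 and Ccl20 (156 against 536, −1.57), a gap of 2.67 on the log2 scale. The difference was not tested, since each diet had 1 library. Il17ra was higher in FMD in innate lymphoid-like cells (64 UMIs against 12, 1.04) and lower in FMD in helper T-like cells (201 against 258, −0.29), a gap of 1.33 that was not tested either. In the Xcl1 and Klrb1b cluster alone the interval of Il17ra crossed 0 (0.69 [−0.44, 1.96]), from 27 and 9 UMIs, under the minimum.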

How the results depend on the processing

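No paired analysis was possible because each diet had 1 library. The lower Il17a and Il17f of FMD helper T-like cells kept their direction under all alternatives run except, for Il17f, the Izumo1r and Sh2d1a cluster alone. With cells thinned to 1000 UMIs, the log2 ratio moved to −2.94 for Il17a and −1.96 for Il22 in helper T-like cells, to −1.16 for Il17a in gamma delta T-like cells and to −1.25 for Il22 in innate lymphoid-like cells. Without the 5 highest cells of each library, Il17a in gamma delta T-like cells moved to −1.62, and in helper T-like cells Il17f moved to −2.96 and Il22 to −0.68. Il22 in innate lymphoid-like cells turned to 0.30 without the highest cell and was −0.074 in the Xcl1 and Klrb1b cluster. In the Izumo1r and Sh2d1a cluster alone, an alternative added after seeing the data like the other single clusters, Il17a was −0.95, Il17f turned to 0.59 from 5 and 3 UMIs, and Il22 turned to 1.10, against −1.57 in the Tnfsf11 and Ccl20 cluster. A gate on marker UMIs turned Il22 in helper cells to 0.76 (540 UMIs in FMD, 345 in ad libitum), where 402 of the 540 lay in 2 FMD cells of the innate lymphoid-like class that passed the gate. The cause of the other moves was not tested.

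Of 152 further ratios, 136 kept within their interval and 16 moved; of 48 levels, 38 and 10; of 48 shares, 18 and 30, all 30 being higher without thinning. Il22 in innate lymphoid-like cells without 5 cells, and classes without the split, gave no value. Genes at least 2-fold apart depended on the UMI minimum. At 20 and 100 UMIs those higher in FMD numbered 114 and 5 in helper (17 at 50 UMIs), 190 and 22 in regulatory (45), 189 and 2 in gamma delta (25) and 223 and 12 in innate lymphoid-like cells (49). Those lower numbered 138 and 24 (42), 122 and 11 (37), 168 and 10 (24) and 248 and 13 (55) in the same classes. With 47 and 69 gamma delta and 29 to 60 Xcl1 and Klrb1b cells per library, a few cells set these levels, and with 1 library a diet no value has a replicate.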
